A study of Mus musculus with 16 samples.

Results

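Foxa2, Foxa1 and 9030622O22Rik are 3 of the 35976 genes in the deposited counts table. Foxa2 and Foxa1 encode paralogous forkhead transcription factors, and 9030622O22Rik is annotated as a long intergenic noncoding RNA beside Foxa2. The genes were taken by name, and all 3 passed the filter on low counts. The sample groups were chosen by measured FOXA2 level, so the values of Foxa2 are given as a description, with no test.

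The data were 16 bulk RNA-seq libraries of neural tube organoids at day 4, grown from mouse embryonic stem cells. Cells had been separated by FOXA2 level into 4 groups, called gates in this text, of 4 libraries each. All libraries came from the R1 line carrying FOXA2-Venus, a fluorescent reporter of FOXA2, and all had received retinoic acid (RA) for 18 hours. The negative, low, medium and high gates therefore shared line, reporter, treatment and age, and differed in FOXA2 level. How the reporter was built, whether the line is 1 clone and how the gates were drawn are not stated in the sources used. BRB-seq reads come mostly from the 3′ end of a transcript, so a count follows the number of transcripts more than their length.

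FOXA proteins bind forkhead sites in closed chromatin and open it to other factors, for which they are called pioneer factors. In the embryo, Foxa2 is required for the node, the notochord and the floor plate, a ventral signalling centre of the neural tube that secretes Sonic hedgehog, and both paralogues also act in endoderm. In the neural tube, Sonic hedgehog acting through GLI factors induces Foxa2, and FOXA2 in turn acts upstream of Shh in the floor plate.

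Foxa2 lies at chr2:148042877-148046969 and 9030622O22Rik at chr2:147944740-148040203, both on the minus strand (GRCm38, GENCODE M21). The noncoding gene therefore lies downstream of the 3′ end of Foxa2 on the same strand, with 2673 bases between them. Foxa1 lies at chr12:57540628-57546916, also on the minus strand. GENCODE M21 has no other gene overlapping any of the 3. RefSeq gives Foxa1 a longer span, which overlaps Ttc6 on the opposite strand. The sources used do not state the strand setting of the counting, so reads of Foxa1 and Ttc6 cannot be told apart in that overlap. No 50-base stretch of the annotated transcripts of Foxa2, Foxa1 or 9030622O22Rik occurred in a transcript of another gene (0 of 2365, 0 of 3276 and 0 of 1631 stretches), so reads of that length would not be shared between the paralogues.

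The 250 bases before the first start that RefSeq lists for each gene are shown because a forkhead factor defined the gates and all 3 genes had their highest mean in the high gate. The sequences are from RefSeq (GRCm38.p6), written 5′ to 3′ on the gene's own strand, the minus strand, at chr2:148046970-148047219 for Foxa2, chr12:57546112-57546361 for Foxa1 and chr2:148040487-148040736 for 9030622O22Rik. Capitals mark a match to a searched spelling of the forkhead core.
Foxa2: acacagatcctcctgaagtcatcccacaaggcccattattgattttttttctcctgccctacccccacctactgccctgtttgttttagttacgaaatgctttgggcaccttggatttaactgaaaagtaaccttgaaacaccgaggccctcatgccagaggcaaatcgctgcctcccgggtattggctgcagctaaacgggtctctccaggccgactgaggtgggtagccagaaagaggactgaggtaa
Foxa1: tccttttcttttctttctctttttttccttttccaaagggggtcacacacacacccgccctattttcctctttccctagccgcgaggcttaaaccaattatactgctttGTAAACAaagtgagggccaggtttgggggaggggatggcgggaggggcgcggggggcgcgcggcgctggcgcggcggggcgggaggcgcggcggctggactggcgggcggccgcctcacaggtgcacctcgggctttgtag
9030622O22Rik: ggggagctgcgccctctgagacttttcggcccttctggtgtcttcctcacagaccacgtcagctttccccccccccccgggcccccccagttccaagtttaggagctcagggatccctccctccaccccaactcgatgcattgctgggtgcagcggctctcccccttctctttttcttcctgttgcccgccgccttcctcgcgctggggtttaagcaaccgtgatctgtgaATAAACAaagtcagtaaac
Both strands were searched for 4 spellings of the forkhead core and for TGGGTGGTC, a GLI site. Over 27025 windows of the same length, TGTTTAC stood in 3.09%. TGTTTGC stood in 4.30%, while TATTTAC was found in 2.75% and TGTTTAT in 4.19%. At least 1 of the 4 was present in 13.2% of the windows, and the GLI letters in 0.211%. The Foxa1 window held TGTTTAC on the strand opposite to the gene, 141 to 135 bases before that start. The window of 9030622O22Rik held TGTTTAT on the opposite strand, 19 to 13 bases before the start. The Foxa2 window held none of the 4 spellings searched, and none of the 3 windows held the GLI letters. Other spellings of a forkhead site were not searched, so the Foxa2 window cannot be said to lack one. RefSeq lists 26 start windows for 9030622O22Rik, and the window shown is the one it lists first. Of the 26, 21 held at least 1 of the 4 spellings. They are starts of 1 gene, and their windows can overlap and hold the same site. The 21 of 26 therefore cannot be set against the 13.2%, which took 1 window per gene. The Foxa1 window lies inside the gene's span in both GENCODE M21 and RefSeq, so it is upstream of that start but not of the whole gene, and no window before the outermost start of Foxa1 was searched.

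Library totals ran from 3268948 to 9961032 counts, so 1 count was worth at most 0.306 CPM (counts scaled to library size). Counting error alone lets a gene with no count have had up to 3, which is 0.301 to 0.918 CPM depending on the library. On the third principal component, with 8.66% of the variance, low 1 (29.7) and medium 2 (37.9) lay apart from the rest of their gates, and the neighbouring-gate results are also given without both. High 2 lay apart on the second component (42.2, against 0.833 to 11.2 in the other high libraries) and high 4 on the fourth (48.95, against at most 0.284). With any 1 library left out, high 2 and high 4 included, the log2 fold change of high over negative was 4.55 to 5.47 for Foxa1 and 6.42 to 7.22 for 9030622O22Rik. Neural progenitor markers were present and lowest in the high gate, their summed level being 231 to 277 CPM per negative library, 237 to 300 per low library, 132 to 173 per medium library and 56.4 to 73.8 per high library. Sox1 and Sox2, which define early neural progenitors, were listed at 0 in all 16 libraries, and whether their RNA was absent cannot be told from this table. Shh, a defining floor plate gene, was too low to be tested, as described with the pathway genes.

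The level of Foxa2 separated the gates with no overlap. It was 1.78, 2.95, 5.28 and 1.64 CPM in negative libraries 1 to 4, and 14.8, 9.54, 14.3 and 9.14 CPM in low libraries 1 to 4. In medium libraries 1 to 4 it was 55.9, 60.0, 38.5 and 53.4 CPM, and in high libraries 1 to 4 it was 110, 103, 140 and 101 CPM. The highest negative library lay below the lowest low library, and the same held at each further step. The means were 2.91 ± 1.68 CPM at negative FOXA2, 11.9 ± 3.02 at low, 52.0 ± 9.36 at medium and 113 ± 18.2 at high FOXA2 (SD, n = 4 each). Set against the mean of the high gate, Foxa2 stood at 2.57% at negative FOXA2, 10.5% at low and 45.8% at medium FOXA2. In bulk libraries, fewer FOXA2-expressing cells and less RNA per cell cannot be told apart.

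Foxa1, the paralogue that shares functions with Foxa2 in endoderm and in ventral midbrain, was higher in each gate above the negative one, and its medium and high gates overlapped. Foxa1 was 0.648, 0.347, 0 and 0.205 CPM in negative libraries 1 to 4, a total of 8 counts. It was 3.04, 1.41, 0.706 and 2.32 CPM in low libraries 1 to 4, a total of 53 counts. Medium libraries 1 to 4 had 5.90, 10.4, 4.15 and 7.08 CPM (167 counts), and high libraries 1 to 4 had 9.98, 7.33, 10.2 and 9.44 CPM (186 counts). Medium 2, with 10.4 CPM, was above every high library, while all other pairs of gates were apart. How many of all genes have gates apart was not counted, so gates without overlap are, here and below, a description only. The means were 0.300 ± 0.272 CPM at negative FOXA2, 1.87 ± 1.02 at low, 6.88 ± 2.63 at medium and 9.23 ± 1.30 at high FOXA2 (SD, n = 4 each). Foxa1 thus stood at 3.25%, 20.3% and 74.5% of its high mean in the negative, low and medium gates.

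The noncoding RNA 9030622O22Rik had its largest step in CPM between the medium and the high gate, and its largest fold between the low and the medium gate (log2 3.23, against 2.35 for high over medium). It was 0.648, 0.521, 0.364 and 0.102 CPM in negative libraries 1 to 4 (10 counts), and 1.39, 1.24, 0 and 1.16 CPM in low libraries 1 to 4 (26 counts). Medium libraries 1 to 4 had 3.94, 12.9, 8.12 and 10.8 CPM of it (221 counts), and high libraries 1 to 4 had 47.9, 47.3, 41.5 and 48.1 CPM (902 counts). Low 3 had no count of it, so the low and negative gates overlapped, and every other pair of gates was apart. The means were 0.409 ± 0.235 CPM at negative FOXA2, 0.947 ± 0.639 at low, 8.92 ± 3.85 at medium and 46.2 ± 3.16 at high FOXA2 (SD, n = 4 each). The high libraries were close to each other, with a coefficient of variation of 6.85% (Foxa2 16.0%, Foxa1 14.1%). Per high library 9030622O22Rik had 158 to 288 counts and Foxa1 only 29 to 66. Counting error thus takes a larger part of the Foxa1 value, and those 2 values cannot be compared as spread of expression. Against its high mean, 9030622O22Rik stood at 0.885% at negative FOXA2, 2.05% at low and 19.3% at medium FOXA2.

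**Figure D1:**
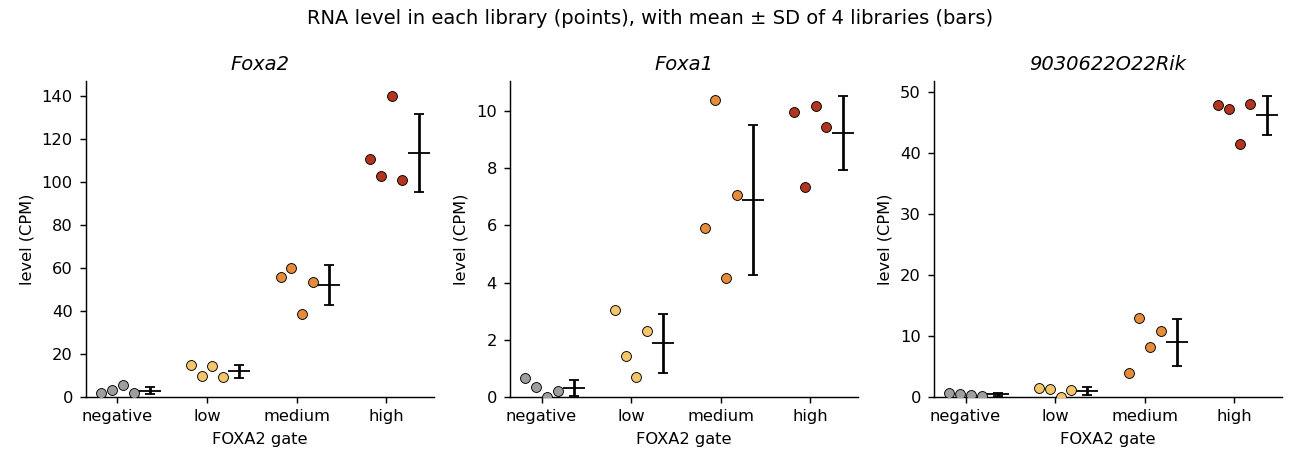
Level of Foxa2, Foxa1 and 9030622O22Rik in CPM (vertical axes, 1 scale per gene) in the 4 FOXA2 gates, with a point for each library and bars for the mean ± SD of 4 libraries. Foxa1 averaged 9.23 CPM in high and 6.88 CPM in medium libraries, with overlapping points, whereas 9030622O22Rik averaged 46.2 CPM in high and 8.92 CPM in medium libraries, with points far apart.

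The 6 pairs of gates were compared for Foxa1 and 9030622O22Rik with edgeR's quasi-likelihood test, fitted over all 13891 genes that passed the filter, with Benjamini-Hochberg adjustment over all of them at a threshold of 0.05. The labels do not say that the numbered libraries are separate cultures, so the p-values measure library-to-library spread, some of which may be technical. A gene is called higher or lower in what follows where its adjusted p was under the threshold. All comparisons against 1 gate share its libraries and are not independent.

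Between the high and the negative gate, both genes were called higher, against 8.42% of all genes tested. The log2 fold change of Foxa1 was 4.88 (SE 0.507, adjusted p = 2.12e-08), and the summed counts gave 32.0 times the negative level (exact 95% interval for counting error 15.9 to 75.3). That of 9030622O22Rik was 6.88 (SE 0.450, adjusted p = 1.14e-10), and its summed counts gave 124 times the negative level (67.3 to 260.02). Between the high and the low gate both were again called higher, against 3.79% of all genes, with log2 fold changes of 2.28 for Foxa1 (SE 0.387, adjusted p = 0.000159) and 5.58 for 9030622O22Rik (SE 0.391, adjusted p = 1.24e-09).

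In the comparison of the high with the medium gate, 0.367% of all genes were called higher. The noncoding RNA was called higher, and its log2 fold change was 2.35 (SE 0.297, adjusted p = 0.000145). Foxa1 was not called, with 9.23 ± 1.30 CPM in high and 6.88 ± 2.63 CPM in medium cells and a fitted log2 difference of 0.42 (SE 0.348, adjusted p = 0.822). Over all alternative settings the fold change of Foxa1 stayed between 0.24 and 0.68 (adjusted p from 0.374 to 0.972) and that of 9030622O22Rik between 2.11 and 2.56. Without low 1 and medium 2, the high over medium values were 0.68 for Foxa1 (adjusted p = 0.374) and 2.56 for 9030622O22Rik (adjusted p = 5.16e-05). That 1 gene was called and the other not does not show that they differ; the test of their counts against each other is given with the ratios, and it did not pass after adjustment.

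In the comparison of the medium with the negative gate, both were called higher, against 4.24% of all genes. The log2 fold changes were 4.45 for Foxa1 (SE 0.512, adjusted p = 2.63e-07) and 4.53 for 9030622O22Rik (SE 0.497, adjusted p = 1.09e-06). For the medium gate against the low gate, with 0.49% of all genes called higher, the log2 fold changes were 1.85 for Foxa1 (SE 0.387, adjusted p = 0.0121) and 3.23 for 9030622O22Rik (SE 0.418, adjusted p = 0.000131), and both were called. The call for Foxa1 was lost without low 3, the low library with the least of it (1.58, adjusted p = 0.0739), and without medium 2, the medium library with the most (1.59, adjusted p = 0.0676). Without both low 1 and medium 2, Foxa1 was called (1.94, adjusted p = 0.033), as was 9030622O22Rik (3.3, adjusted p = 0.000754).

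Between the low and the negative gate it was Foxa1 that was called higher, while the noncoding RNA was not, against 1.47% of all genes called higher. The log2 fold change of Foxa1 was 2.60 (SE 0.571, adjusted p = 0.00533), which rested on 53 counts in the low gate and 8 in the negative gate (6.54 times the negative level, interval 3.09 to 15.9). For 9030622O22Rik the log2 fold change was 1.30 (SE 0.697, adjusted p = 0.422), from 26 counts in the low gate and 10 in the negative gate (2.57 times, interval 1.20 to 5.97). Whether the low over negative changes of the 2 genes differ from each other was not tested in this model.

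**Figure D2:**
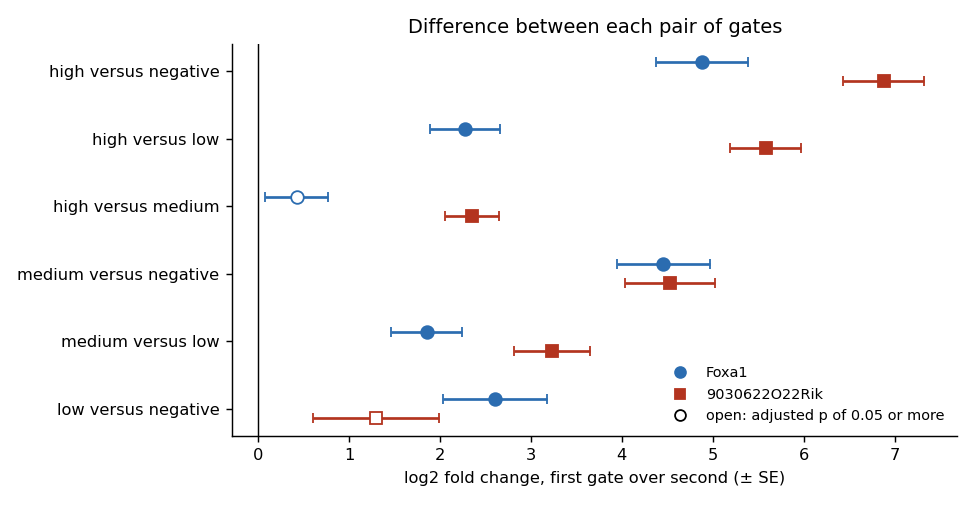
Log2 fold change (horizontal axis, first-named gate over the second, ± SE) of Foxa1 and 9030622O22Rik in each pair of gates, from the edgeR fit to all 16 libraries. Open symbols, Foxa1 for high versus medium (0.42) and 9030622O22Rik for low versus negative (1.30), had an adjusted p of 0.05 or more.

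Ratios taken within a library do not depend on its depth, and they are given as ratios of counts, not of molecules per length. Foxa1 had 15.2 ± 15.3 counts per 100 Foxa2 counts at negative FOXA2, 16.4 ± 8.78 at low, 13.0 ± 3.14 at medium and 8.20 ± 1.16 at high FOXA2 (SD, n = 4 each). The medium libraries ran from 10.6 to 17.3 and the high libraries from 7.14 to 9.37, so Foxa1 was lower relative to Foxa2 in every high library than in any medium library. The noncoding RNA went the other way. It had 16.8 ± 14.1 counts per 100 Foxa2 counts at negative FOXA2, 8.77 ± 6.06 at low, 17.4 ± 6.94 at medium and 41.7 ± 8.25 at high FOXA2. By library it had 43.4, 46.1, 29.6 and 47.7 counts per 100 Foxa2 counts in high libraries 1 to 4, against 7.04, 21.4, 21.1 and 20.2 in medium libraries 1 to 4. Every high library lay above every medium library, and high 3, the library with the most Foxa2 (140 CPM), had the lowest ratio of its gate. As Foxa2 set the gates, these ratios have no test.

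The share of 9030622O22Rik in the counts of Foxa1 and 9030622O22Rik together does not use Foxa2, and it was compared between gates by an exact two-sided permutation test, chosen after the values were seen. The share was 60.8 ± 28.3% at negative FOXA2, 27.9 ± 19.8% at low, 55.5 ± 11.2% at medium and 83.3 ± 2.59% at high FOXA2 (SD, n = 4 each). In high libraries 1 to 4 it was 82.8, 86.6, 80.3 and 83.6%, against 40.0, 55.3, 66.2 and 60.3% in medium libraries 1 to 4, with no overlap. The high share exceeded the medium share by 27.8 points, with an exact permutation p = 0.0286, the smallest that 4 against 4 allows, and an adjusted p = 0.0857 over the 6 pairs. The high share exceeded the low share by 55.5 points with the same exact p and adjusted p. For high and negative the difference was 22.5 points (exact p = 0.143), for medium and low 27.6 points (exact p = 0.0571), for medium and negative -5.37 points (exact p = 0.83) and for low and negative -33.0 points (exact p = 0.0857). None of the 6 pairs passed the threshold after adjustment, and the negative values rest on 8 and 10 counts in all.

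**Figure D3:**
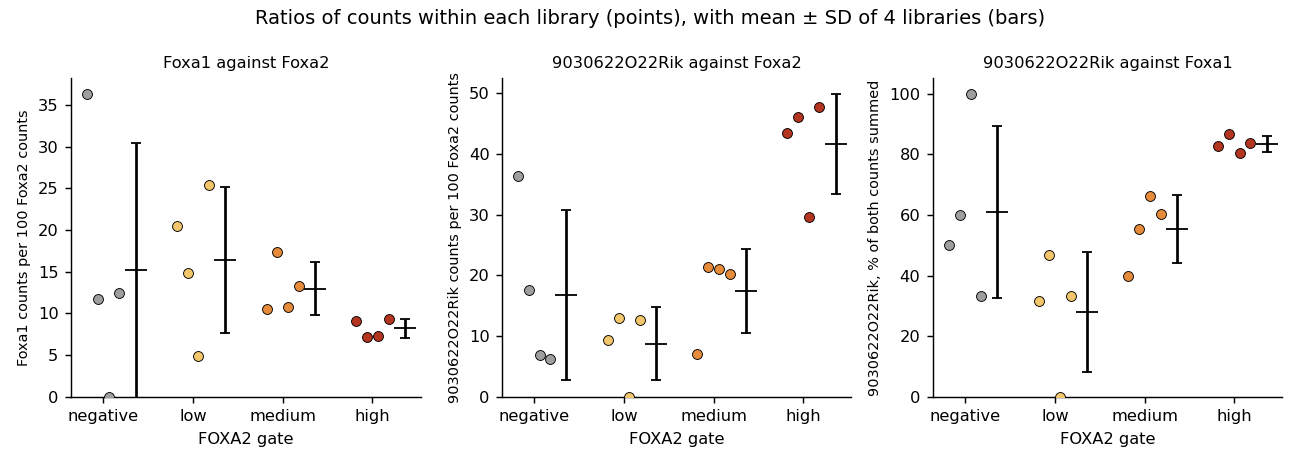
Counts of Foxa1 and of 9030622O22Rik per 100 Foxa2 counts, and the share of 9030622O22Rik in the counts of Foxa1 and 9030622O22Rik together (percent), by FOXA2 gate, with a point for each library and bars for the mean ± SD of 4 libraries. In the high gate Foxa1 fell to 8.20 per 100 Foxa2 counts, against 13.0 in the medium gate, while 9030622O22Rik reached 41.7 in the high gate, against 17.4 in the medium gate, and the points of the negative and low gates spread widely.

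Genes within 1 Mb of each locus were compared between the high and the negative gate in the same fit. Around Foxa2, 43 genes are annotated, 24 are in the counts table and 5 were tested. Of these 5, 9030622O22Rik was called higher and none was called lower, against 8.42% of all genes called higher and 8.55% called lower. The other 4 were not called: Xrn2, a nuclear exonuclease, at a log2 fold change of -0.08, Nxt1, an mRNA export factor, at -0.21, Gzf1, a zinc finger gene, at -0.05, and Cst3, which encodes cystatin C, at 0.07. Each of these lies 625.6 kb or more from Foxa2, and the tested genes say nothing of the closer genes that were too low. Sstr4, a somatostatin receptor gene and the nearest gene of the table on the other side of Foxa2 (348.4 kb), had 0 counts in all libraries.

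Around Foxa1, 24 genes are annotated, 14 are in the table and 6 were tested. Of these 6, 3 were called higher and 0 lower, against 8.42% of all genes called higher and 8.55% called lower. Ttc6, a gene of tetratricopeptide repeats 17.2 kb from Foxa1, had 3.66, 3.29, 1.23 and 3.65 CPM in high libraries 1 to 4, against 0.324, 0, 0.182 and 0.307 CPM in negative libraries 1 to 4. Its log2 fold change was 3.62 (SE 0.727, adjusted p = 0.000562), and its reads cannot be told apart from those of Foxa1 where the RefSeq spans overlap. In the medium gate, medium 2 had the most of both Ttc6 (3.3 CPM, against 0.590 to 1.21 in the other medium libraries) and Foxa1 (10.4 CPM, against 4.15 to 7.08). Mipol1, on the other side at 43.4 kb, was not called, with 18.1 CPM in high and 17.3 CPM in negative cells (log2 fold change 0.08, SE 0.185, adjusted p = 0.831). Farther out, 927.3 kb from Foxa1, the homeobox gene Nkx2-9 was called higher, as was Gm26973, annotated as antisense, whose RefSeq span overlaps Nkx2-9 on the other strand. As with Ttc6 and Foxa1, reads of Gm26973 and Nkx2-9 cannot be told apart in that overlap. Gm26973 averaged 4.32 ± 0.747 CPM in high and 0.661 ± 0.272 CPM in negative cells (log2 fold change 2.7, SE 0.535, adjusted p = 0.000483). Pax9 (0.23) and Slc25a21 (0.37), which lie between Nkx2-9 and Foxa1, were not called.

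**Figure D4:**
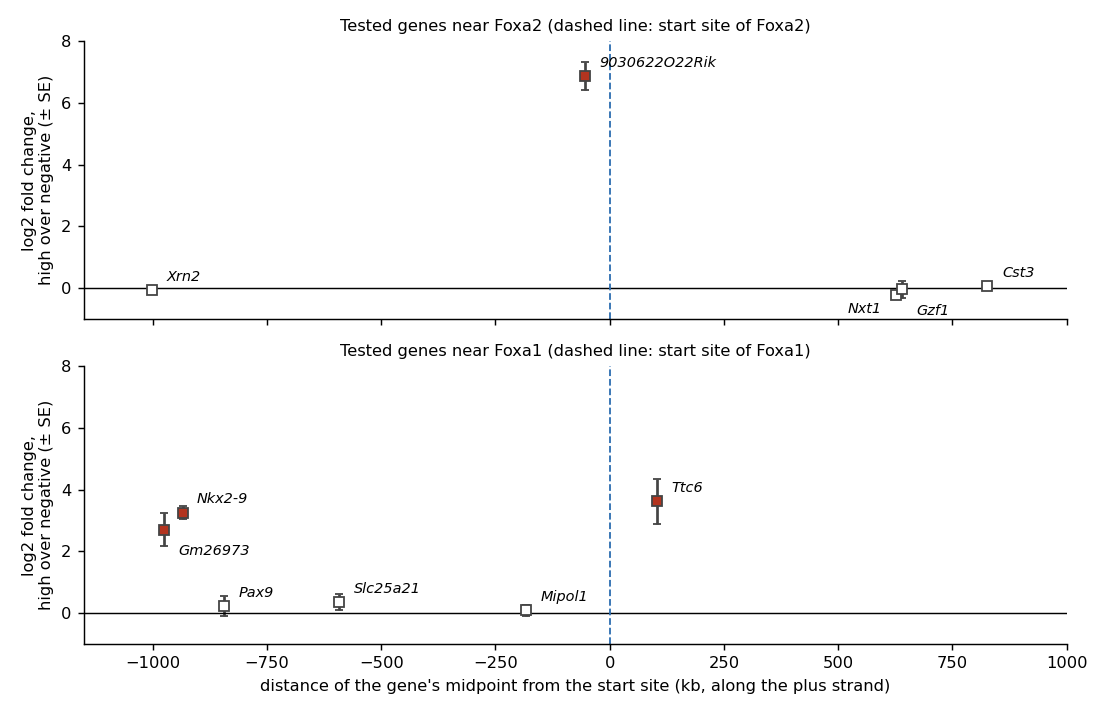
Log2 fold change of the high over the negative gate (vertical axis, ± SE) for the tested genes within 1 Mb of Foxa2 (top) and Foxa1 (bottom), by the distance of the gene's midpoint from the start site in kb along the plus strand. Filled squares had an adjusted p under 0.05: 9030622O22Rik near Foxa2, and Ttc6, Nkx2-9 and Gm26973 near Foxa1.

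The other forkhead genes were examined because paralogues can act at the same sites. Of 42 in the list, 22 were tested, of which 4 were called higher and 2 lower with high against negative FOXA2, against 8.42% and 8.55% of all genes, and the median log2 fold change was 0.19, against 0.00 over all genes. The share called lower was thus near that of all genes. The third FOXA gene, Foxa3, which acts mainly in liver and gut, stayed low, at 1.83 ± 1.00 CPM at negative FOXA2, 1.45 ± 0.795 at low, 1.61 ± 0.665 at medium and 1.54 ± 0.544 at high FOXA2 (SD, n = 4 each), and was not called (log2 fold change -0.27, SE 0.554, adjusted p = 0.811). Foxq1 had 9.31, 5.56, 5.4 and 7.00 CPM in high libraries 1 to 4, against 1.78, 0.694, 0.910 and 0.614 CPM in negative libraries 1 to 4, with no overlap (log2 fold change 2.78, SE 0.506, adjusted p = 0.000171). Foxd2 averaged 3.78 CPM in high and 0.596 CPM in negative cells (log2 fold change 2.55, SE 0.555, adjusted p = 0.00139). Foxp4 rose less, at 81.0 CPM in high against 46.2 CPM in negative cells (0.81, SE 0.133, adjusted p = 4.6e-05), as did Foxp1, named after its values were seen, at 148 CPM in high against 93.1 CPM in negative cells (0.67, SE 0.117, adjusted p = 0.000101).

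Foxb1, expressed in neural progenitors, had 7.82, 6.58, 6.32 and 8.52 CPM in high libraries 1 to 4, against 21.2, 20.1, 37.9 and 39.0 CPM in negative libraries 1 to 4, with no overlap (log2 fold change -2.03, SE 0.246, adjusted p = 5.88e-07). Foxh1, the forkhead partner of SMADs in Nodal signalling, averaged 15.6 CPM in high and 35.0 CPM in negative cells (log2 fold change -1.15, SE 0.187, adjusted p = 3.91e-05).

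**Figure D5:**
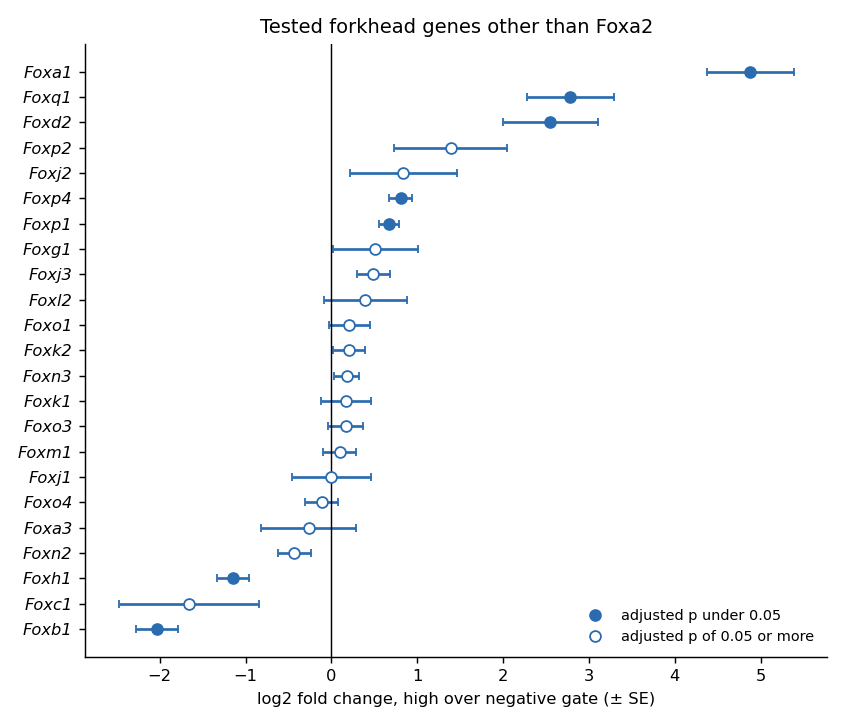
Log2 fold change of the high over the negative gate (horizontal axis, ± SE) for Foxa1 and the 22 other forkhead genes tested, ordered by size, with filled points for an adjusted p under 0.05. Foxa1 (4.88) stands at the top, Foxb1 (-2.03) at the bottom, and Foxa3 (-0.27) near 0.

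Genes that act upstream of Foxa2 were divided. Of 24 tested genes of the Hedgehog and Nodal list, 5 were called higher and 7 lower with high against negative FOXA2 (8.42% and 8.55% of all genes, median log2 fold change 0.15). That list also held Yap1, Tead1, Tead2, Tead3 and Tead4, which belong to neither pathway. Tead3 (0.67, SE 0.214, adjusted p = 0.029) was among the 5 called higher. Shh, the floor plate ligand, did not pass the filter, with 26 counts in all high libraries and 7 in all negative libraries. Ptch1, the Hedgehog receptor and a direct GLI target, averaged 117 ± 19.9 CPM in high and 28.7 ± 3.62 CPM in negative cells (SD, n = 4 each), and its log2 fold change was 2.03 (SE 0.196, adjusted p = 8.74e-08). Hhip, a decoy receptor for the ligand, rose as well, at 13.2 CPM in high against 3.03 CPM in negative cells (2.13, SE 0.455, adjusted p = 0.00228). Gli1, also a GLI target, averaged 19.8 CPM in high and 14.0 CPM in negative cells and was not called (0.52, SE 0.221, adjusted p = 0.106), though it was called without negative 1 (0.80, adjusted p = 0.0116). The co-receptor Boc fell, at 10.9 CPM in high against 44.8 CPM in negative cells (-2.06, SE 0.199, adjusted p = 5.94e-09). On the Nodal side, Nodal (0.689 CPM in high against 6.27 CPM in negative cells) and its feedback inhibitor Lefty1 (19.7 CPM in high against 101 CPM in negative cells) were called lower, and the co-receptor Tdgf1 had 3 counts in all high libraries and 274 in all negative libraries. The count of 5 higher genes became 3 without negative 2, without high 3 or without high 4.

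Most tested genes that act beside or below FOXA2 in the floor plate were higher in the high gate. Of the 13 floor plate genes tested, Foxa2 and Foxa1 left out, 9 were called higher and 0 lower, against 8.42% and 8.55% of all genes (median log2 fold change 1.00). Lmx1a (-1.02) was among those not called. Among listed genes too low to be tested, Ferd3l had 0 counts in every gate and Corin had 2 in the high gate. The 7 floor plate markers summed to 32.1 to 35.5 CPM per negative library and 36.6 to 53.5 per low library. Sums were 56.4 to 60.0 CPM per medium library and 72.3 to 88.3 per high library. Only 3 of the 7 were tested, and all 3 were called higher. Nkx2-9, an early ventral homeobox gene, averaged 168 ± 38.8 CPM in high and 17.6 ± 3.97 CPM in negative cells (3.26, SE 0.218, adjusted p = 9.58e-10). Nkx6-1, a ventral progenitor factor, averaged 15.4 CPM in high and 1.36 CPM in negative cells (3.50, SE 0.471, adjusted p = 1.14e-05), and Lmx1b averaged 13.4 CPM in high and 5.10 CPM in negative cells (1.40, SE 0.264, adjusted p = 0.000271). Of 5 tested genes that FOXA2 lowers in the midline, 3 were called lower (Pax6, Gli2 and Irx3) and Ptch1 higher, against the same shares of all genes (median log2 fold change -0.42). Pax6 averaged 23.7 CPM in high and 95.4 CPM in negative cells, Gli2 averaged 14.7 CPM in high and 28.9 CPM in negative cells, and Irx3 averaged 72.4 CPM in high and 96.9 CPM in negative cells. The call for Irx3 (-0.42, SE 0.147, adjusted p = 0.0474) was close to the threshold and was lost in 16 of 23 alternative settings. Nkx2-2, another of these genes, had 2 counts in all high libraries and 4 in all negative libraries.

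Foxa2 is also a gene of endoderm and notochord, so their genes are given beside the results above. Of 9 tested endoderm genes, 5 were called higher and 0 lower with high against negative FOXA2, where 8.42% and 8.55% of all genes were (median log2 fold change 0.96). Sox17, an endoderm transcription factor, averaged 134 ± 14.5 CPM in high and 11.7 ± 3.02 CPM in negative cells (3.50, SE 0.205, adjusted p = 2.04e-11), and like Foxa1 it was not called between the high and medium gates (adjusted p = 0.741). Ttr, the transthyretin gene of liver and yolk sac, had 9.65, 9.36, 12.5 and 12.2 CPM in high libraries 1 to 4, and 1 count in all in the negative libraries. The summed level of the 9 endoderm markers was 16.0 to 25.5 CPM per negative library, 52.8 to 75.4 per low library, 86.4 to 164 per medium library and 142 to 179 per high library, and 3 of the 5 tested were called higher. Most of the sum was Sox17, which averaged 52.4 CPM in the low and 112 CPM in the medium gate. Gata4, at 2.13 CPM in high against 3.97 CPM in negative cells, and Foxa3 were not called. Among the defining endoderm markers, Hnf4a was at 0 in the high gate and Cer1 at 0 in the negative and low gates. Of 7 tested notochord and axial mesoderm genes, 6 were called higher and 0 lower, against the same shares of all genes (median 2.71). The 6 were T (brachyury), Chrd (chordin), Vtn (vitronectin) and the keratin genes Krt8, Krt18 and Krt19. Among listed genes too low to be tested, Gsc had 8 counts in the high and 12 in the negative gate. Nog had 3 and 11, Tbx6 had 3 and 4, and Shh had 26 and 7. The 4 notochord markers summed to 1.23 to 1.94 CPM per negative library, 1.41 to 3.42 per low library, 4.96 to 9.40 per medium library and 7.82 to 16.4 per high library, both tested markers were called higher, and Noto was at 0 in all gates. The part of these cells in the levels of the 3 genes was not tested.

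The listed pluripotency genes and the listed neural progenitor genes were mostly lower where FOXA2 was high. Of 14 tested pluripotency genes, 11 were called lower and 0 higher (median log2 fold change -2.82), and of 14 tested neural progenitor genes 12 were called lower and 0 higher (median -1.59), where 8.55% of all genes were called lower and 8.42% higher. Those 12 included Nes (-1.44) and Hes5 (-2.31), but also genes of the dorsal and intermediate tube such as Pax3, Pax7 and Irx3. The call for Irx3 was close to the threshold (adjusted p = 0.0474). The ventral genes Nkx6-1 (3.50) and Nkx2-9 (3.26), called higher, were counted with the floor plate and not in this list. The 5 pluripotent markers summed to 355 to 590 CPM per negative library, 47.9 to 99.4 per low library, 25.9 to 42.1 per medium library and 18.3 to 36.4 per high library. Most of the sum was Utf1, which averaged 364 CPM in the negative and 16.8 CPM in the high gate. All 4 pluripotent markers that were tested were called lower. Pou5f1 averaged 2.49 CPM in the negative gate and was at 0 in the high gate. Of the 5 neural progenitor markers all 3 tested were called lower. Their part in the differences between the negative gate and the others was not tested.

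The genes whose pattern was most like each of the 3 were found by the root mean square difference in log2(CPM + 1) over the 16 libraries, each gene centred on its own mean. The search covered 10435 genes with a mean of at least 5 CPM, and genes below that level, such as Ttr, were not compared. The measure weighs size as well as shape, and for low genes the pseudocount of 1 shrinks the pattern. For Foxa2 the nearest were Igf1 (insulin-like growth factor 1, 0.476), Ntng1 (netrin G1, 0.629), Vtn (0.645) and Kif26b (a kinesin, 0.748), followed by Arg1 (arginase 1, 0.774), Sox17 (0.805), Smoc2 (a secreted matrix protein, 0.808) and Nkx2-9 (0.809). Igf1 averaged 1.71 CPM at negative FOXA2, 5.15 at low, 24.0 at medium and 42.7 at high FOXA2. The distances to Foxa2 were 0.866 for Foxa1 and 0.856 for 9030622O22Rik, with 10 and 9 genes nearer to Foxa2 than these.

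For Foxa1 the nearest genes were Sp5 (a transcription factor induced by WNT, 0.388), Smoc2 (0.414), Igfbp5 (an IGF binding protein, 0.421) and Hsd11b2 (a steroid-inactivating enzyme, 0.428), followed by Nkx2-9 (0.444), Kif26b (0.447), Bmp4 (a BMP ligand, 0.462) and Cdkn1c (a cyclin-dependent kinase inhibitor, 0.488). Bmp4 averaged 5.03 CPM at negative FOXA2, 11.2 at low, 26.8 at medium and 33.4 at high FOXA2, with a small last step like that of Foxa1. Foxa2 itself was farther from Foxa1, with 152 genes nearer, and 9030622O22Rik farther still (1.08, with 800 genes nearer). Foxa1 is itself a low gene, with a mean of 0.300 CPM at negative and 9.23 CPM at high FOXA2. The pseudocount therefore shrinks its pattern and brings it nearer to genes of smaller fold.

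The noncoding RNA had few near neighbours in pattern among the genes compared. The nearest were Vtn (0.679), Igf1 (0.839), Smoc2 (0.943), Nkx2-9 (1.00) and Ntng1 (1.02), and only Vtn and Igf1 were nearer to it than Foxa2 was (0.856). Hsd11b2 (1.07), Myl3 (a myosin light chain, 1.09) and Kif26b (1.10) completed the 8. Vtn averaged 0.813 CPM at negative FOXA2, 1.76 at low, 10.4 at medium and 25.8 at high FOXA2, and was called higher in the high than in the medium gate (log2 fold change 1.31, SE 0.243, adjusted p = 0.00301), where 9030622O22Rik had 2.35. Myl3 averaged 12.6 CPM in high and 0.662 CPM in negative cells. Kif26b, Nkx2-9 and Smoc2 stood among the 8 nearest genes of all 3.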

How the data were processed

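The authors deposited a table of raw counts per gene for 16 libraries made by BRB-seq, a 3′ method. Per the submitters' processing notes, the tools were cutadapt 1.18, STARsolo 2.7.9a and DESeq2 1.42.0, and the build was GRCm38. The annotation, the strand setting and the use of molecular identifiers are not stated in the sources used. Columns were assigned by title.

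Tests used edgeR 4.0.16 (R 4.3.3). Its expression filter left 13891 genes, which held at least 99.665% of each library. A robust quasi-likelihood model with the 4 gates and TMM scaling was fitted to all 16 libraries, with Benjamini-Hochberg adjustment within each pair of gates. SE was obtained from the fold change and its F statistic. CPM uses the scaled totals.

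The genes and the 8 lists were chosen with earlier results of these data known. From each list, up to 5 genes called in high versus negative were named by size of change, besides a fixed set, of which 1 gene is not reported here. For each of the 3 genes, the 8 most similar genes with a mean of at least 5 CPM were named. Over 24 pairs of libraries within a gate, the smallest chi-square per degree of freedom was 4.31, so none was a duplicate. Steps were tested on simulated data. Other settings tried were DESeq2 1.42.0, RLE scaling, no filter, a replicate block, thinning to the smallest total, only the 2 groups compared, each library left out and, for likeness, a pseudocount of 0.5. Leaving out both low 1 and medium 2 was added after the data were seen. Sequences come from RefSeq, and coordinates from GENCODE M21.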

Additional observations from a re-analysis of the deposited data

Results flagged for a closer look

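The values of the 3 genes and their ratios were examined in 24 groups of 4 libraries, and in 3 of them the lowest library lay far from the other 3. Chance flags about 1 in 20 groups. All 3 concern 9030622O22Rik. In the low gate, low 3 had 0 CPM, against 1.16 to 1.39 in the other low libraries. In the high gate, high 3 had 41.5 CPM, against 47.3 to 48.1 in the other high libraries. In the medium gate, medium 1 had 7.04 counts of 9030622O22Rik per 100 Foxa2 counts, against 20.2 to 21.4 in the other medium libraries.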

How the results depend on the processing

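Of 274 log2 fold changes of Foxa1 and 9030622O22Rik under other settings, 272 kept their direction and their side of the threshold. The exceptions were Foxa1 in medium versus low without low 3 (1.58) and without medium 2 (1.59), in a range of 1.58 to 2.21 with 1 library left out. The fold changes of Foxa1 over the negative gate moved in size. Over all settings, high versus negative ran from 4.55 to 6.32, the highest after thinning, against 4.88 in the main fit. Medium versus negative ran from 4.13 to 5.99 (4.45 in the main fit) and low versus negative from 2.25 to 4.12 (2.60). The fit of only the 2 groups gave no value for either gene in low versus negative.

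Replicate numbers are shared across gates. Same-numbered libraries correlated at -0.0759 to 0.204 (median 0.0293), with 6 of 24 pairs over 0.1. Differently numbered libraries had a median of -0.0115, with 6 of 72 pairs over 0.1. As a hint from the data, 11 of 16 libraries correlated best with their own number. The titles give each number in every gate but do not say what it marks. These correlations cannot settle whether same-numbered libraries belong together, and the samples were not treated as paired. The permutation test of the shares took no account of the numbers. With the replicate block, high versus negative gave 4.97 for Foxa1 and 6.92 for 9030622O22Rik, and 1235 genes were called higher and 1233 lower; no call of the 2 genes changed.

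Counts over all genes moved in the neighbouring gates. For high versus medium, with 51 called higher and 76 lower, no filter gave 87 and 135, DESeq2 gave 83 higher, leaving out both low 1 and medium 2 gave 171 and 153, and leaving out 1 library gave 26 to 112 and 46 to 121. For medium versus low, with 68 higher and 31 lower, no filter gave 120 and 69, DESeq2 106 and 55, only the 2 groups 39 and 18, and leaving out 1 library 34 to 79 and 16 to 35. For low versus negative, 204 genes were called higher, 318 with no filter and 125 to 278 with 1 library left out. With 1 library left out, the Hedgehog and Nodal list had 3 to 6 genes higher and the list of genes that FOXA2 lowers had 1 to 2. The share of 9030622O22Rik, medium minus negative, was -5.37 points and ran from -14.5 to 7.68 with 1 library left out, positive without negative 3. Mipol1 (0.08) turned to -0.11 after thinning, and ran from -0.021 to 0.18 with 1 library left out, negative without negative 1. The causes were not tested. Depth limits the negative and low gates, with 8 to 53 counts of Foxa1 or 9030622O22Rik per gate.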
